A study of Mus musculus with 7 samples.

Results

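Beta-oxidation breaks fatty acids into acetyl units, and its enzymes sit in mitochondria and in peroxisomes. This group was a list of 31 genes for those enzymes and for the carriers and thioesterases that serve them, 21 mitochondrial and 10 peroxisomal. Where several probe sets were annotated to 1 gene and no other, the brightest on average over all arrays stood for it. By that rule 30 members, 20 mitochondrial and 10 peroxisomal, were measured, out of 18193 genes with a probe set of their own. Acsl1 was not analysed here. All 30 lay above the filter on dim genes.

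Expression was measured on arrays of total RNA from terminal ileum, where the small intestine ends, from 8-week-old male C57BL6J mice. Low-dose penicillin at 6.7 mg/L was given from birth to 4 of them, and the 3 controls had no antibiotic. Both groups were weaned at 4 weeks onto chow and from 6 weeks ate high-fat diet D12451, in which fat supplies 45% of the calories. The labels call the mice biological replicates and name no litter or cage, so effects of those and of penicillin cannot be told apart. The growth text mentions livers, while the tissue label is terminal ileum: the ileal bile acid carrier Fabp6 was at log2 14.4 ± 0.109 (SD, n = 3) in control and 14.5 ± 0.115 (SD, n = 4) in penicillin mice. Of 8 hepatocyte genes 6 lay above the filter. The control means were log2 6.18 for Apoh, 6.37 for Alb, 6.605 for Tat, 8.54 for Ttr and 11.71 for Cyp2e1. Cps1, a urea cycle enzyme that the small intestine also makes, was at log2 12.45 in control mice.

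Long-chain fatty acids are first joined to coenzyme A, cross into mitochondria bound to carnitine, and are shortened there by rounds of oxidation, hydration, oxidation and thiolysis. Electrons from the first oxidation pass through the electron transfer flavoprotein to the respiratory chain. Peroxisomes shorten very long and branched chains and pass the products on as carnitine esters or free acids. Absorbing enterocytes of the small intestine carry out both forms, and many of the genes are known targets of the fat-sensing receptor PPAR alpha.

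No member passed the test between the groups. In the limma fit over 13644 genes, 13 genes, or 0.0953%, had a Benjamini-Hochberg adjusted p under 0.05, and the smallest adjusted p of a member was 0.338. The 20 mitochondrial members centred close to no difference, with a median of -0.046 (log2, penicillin minus control), while 9 of the 10 peroxisomal members had higher values in penicillin mice, with a median of 0.14. The median over all genes tested was -0.014, and 45.3% of those genes had higher values in penicillin mice. At an unadjusted p under 0.05 stood 2 members with higher values, Ehhadh and Crot, both peroxisomal, where the share over all genes was 4.37%. On the lower side stood 1 member, Slc25a20 of mitochondria, where the share over all genes was 6.35%. These counts lie near the shares over all genes. No member differed by as much as log2 0.5, the extremes being -0.26 for Slc25a20 and 0.46 for Acot4.

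**Figure D1:**
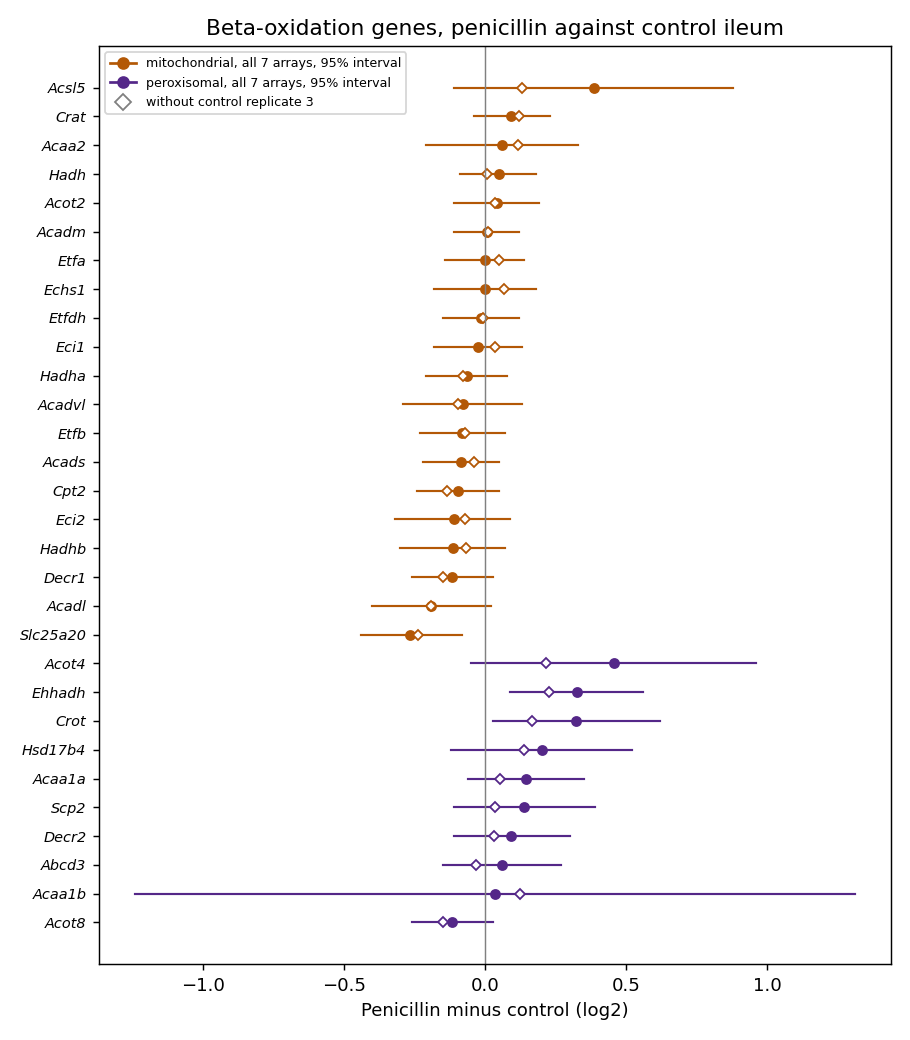
Difference between penicillin and control mice for each of the 30 members (log2, horizontal axis), with 95% intervals from the fit on 7 arrays, brown for mitochondrial and purple for peroxisomal genes; open diamonds give the difference without control replicate 3. The intervals of Slc25a20, Ehhadh and Crot leave out 0, none passed over all genes, and most peroxisomal diamonds lie nearer to 0 than the filled points.

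The stretches of genome just before the start sites are shown for the 3 members with an unadjusted p under 0.05, for Acot4, which had the largest difference, and for Hadhb, whose start lies head to head with that of Hadha. Each is the 150 bases before the start, 5′ to 3′ on the gene's strand, from RefSeq on GRCm38.p6. Capitals mark matches to the motifs named after them.
Slc25a20, chr9:108661986-108662135, plus strand: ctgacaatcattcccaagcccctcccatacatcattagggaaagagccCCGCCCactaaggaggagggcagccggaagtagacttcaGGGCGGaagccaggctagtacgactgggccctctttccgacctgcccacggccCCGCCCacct
Ehhadh, chr16:21787835-21787984, minus strand: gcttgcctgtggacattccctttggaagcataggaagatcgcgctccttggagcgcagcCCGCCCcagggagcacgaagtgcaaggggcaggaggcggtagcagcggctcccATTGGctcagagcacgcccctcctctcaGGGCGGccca
Crot, chr5:8997147-8997296, minus strand: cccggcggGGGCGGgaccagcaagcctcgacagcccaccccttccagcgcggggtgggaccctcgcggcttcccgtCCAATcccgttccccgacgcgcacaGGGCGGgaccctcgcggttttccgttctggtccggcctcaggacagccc
Acot4, chr12:84038229-84038378, plus strand: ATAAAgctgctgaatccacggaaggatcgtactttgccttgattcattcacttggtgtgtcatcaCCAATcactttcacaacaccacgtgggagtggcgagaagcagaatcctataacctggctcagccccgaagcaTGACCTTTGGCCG
Hadhb, chr5:30155103-30155252, plus strand: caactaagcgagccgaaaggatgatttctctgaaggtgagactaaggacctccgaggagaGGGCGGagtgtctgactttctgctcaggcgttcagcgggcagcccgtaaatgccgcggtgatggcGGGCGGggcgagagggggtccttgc

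Both strands of the RefSeq windows of 300 bases, from 250 before to 50 after the start, were searched for 26 members with an entry, 17 mitochondrial and 9 peroxisomal. Crat, Decr1, Acaa2 and Hsd17b4 had none. The repeat bound by PPAR receptors, 2 copies of AGGTCA in the same direction with 1 base of any kind between them, was matched with up to 2 mismatches in 3 mitochondrial members, Echs1, Etfa and Slc25a20, and in 1 peroxisomal member, Acot4, against 3.86% of all 32851 windows. With up to 1 mismatch it was in no member and in 0.554% of all windows. The Slc25a20 match, AGGTGAAAGGTCG, begins 6 bases past the start and so lies outside the stretch shown, and that of Acot4 begins 13 bases before the start. The site of estrogen-related receptors, AAGGTCA with any base before it, was in Acadm and Acot4, against 4.69% of all windows, and in Acot4 it overlaps the PPAR repeat. The GC box GGGCGG was in 12 mitochondrial and 6 peroxisomal members, against 35.7% of windows, and the box CCAAT was in 7 and 6, against 37.4%. A TATAAA was in Acot4 alone of the members, against 13.6%, and the first capitals of its stretch are the end of that match. The member windows were richer in G and C, at a median of 60.3% for mitochondrial and 59.0% for peroxisomal genes against 52.7% over all windows. A match describes letters only.

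Among the genes that bring fatty acids into mitochondria, Slc25a20 had the smallest unadjusted p of all members. It encodes the carrier that exchanges acylcarnitine for carnitine across the inner mitochondrial membrane. Its level was log2 11.92, 11.67 and 11.87 in control replicates 1 to 3 and 11.55, 11.58, 11.45 and 11.65 in penicillin replicates 1 to 4. Every penicillin mouse lay below every control mouse, by a narrow margin between control replicate 2 and penicillin replicate 4. Such non-overlap on the lower side was found in 1 member and in 6.05% of all genes. The difference was -0.26 ± 0.078 (SE, limma adjusted p = 0.338), and it was -0.24 without control replicate 3. With arrays weighted by quality it was -0.33 and passed (limma adjusted p = 0.0275), in a fit that called 774 genes. That fit weighted control replicate 1, the highest of all mice for this gene, at 4.535. Control replicates 2 and 3 were weighted at 0.4643 and 0.2488, and the penicillin arrays at 0.7423 to 2.125. The other probe set of the gene, at a mean of log2 10.55, differed by -0.28.

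Acsl5, a ligase of mitochondria and the endoplasmic reticulum that joins fatty acids to coenzyme A, differed by 0.39 ± 0.21 (SE, adjusted p = 0.529). It was at 12.62, 12.74 and 11.91 in control replicates 1 to 3 and at 12.60, 12.75, 13.15 and 12.75 in penicillin replicates 1 to 4. Control replicate 3 was lowest and penicillin replicate 3 highest, and the other 5 mice lay within 12.60 and 12.75. Without control replicate 3 the difference was 0.13. Cpt2, which moves the acyl group from carnitine back to coenzyme A inside mitochondria, differed by -0.096 ± 0.063 (SE). Crat, the carnitine acetyltransferase, differed by 0.093 ± 0.059 (SE), measured by a set whose name ends in x, the manufacturer's mark for probes that may match other transcripts.

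The acyl-CoA dehydrogenases, which start each round and differ in the chain length they prefer, showed small differences. Acadl, for long chains, was at 11.62, 11.41 and 11.51 in control mice and at 11.19, 11.26, 11.31 and 11.52 in penicillin mice. Penicillin replicates 1 to 3 lay below all control mice and penicillin replicate 4 lay among them. The difference was -0.19 ± 0.091 (SE, adjusted p = 0.497). Acadvl, for very long chains, and Acads, for short chains, differed by -0.079 and -0.085, and Acadm, for medium chains, by 0.007 with a 95% interval from -0.11 to 0.12.

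At the later steps of the mitochondrial spiral the differences ran from -0.11 to 0.062. Hadha and Hadhb encode the alpha and beta subunits of the trifunctional protein, and their start sites are 272 bases apart. They differed by -0.065 ± 0.060 and -0.11 ± 0.079 (SE). Hadha was listed at exactly the same value, 10.03, in control replicate 3 and penicillin replicates 2, 3 and 4, and the origin of such ties was not tested. Such ties across arrays were present in 6 members and in 43.4% of the genes tested. Echs1, a hydratase, differed by 0.001, Hadh, a dehydrogenase for shorter chains, by 0.049, and Acaa2, a thiolase, by 0.062. The set of Hadh, like that of Crat, carries the mark for probes that may match other transcripts. The second set of Hadh, without that mark, differed by 0.070. All 3 probe sets of Acaa2 had higher values in penicillin mice, between 0.060 and 0.19.

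Unsaturated fats need auxiliary enzymes, and all 3 such mitochondrial members had lower values in penicillin mice, of which Eci1 was at 0.034 without control replicate 3. Decr1, the 2,4-dienoyl-CoA reductase, was at 11.01, 11.05 and 10.92 in control mice and at 10.79, 10.89, 10.85 and 10.98 in penicillin mice. Penicillin replicate 4 lay above control replicate 3, so the groups overlapped, and the difference was -0.12 ± 0.063 (SE, adjusted p = 0.529). Its second probe set differed by -0.096. Eci2 and Eci1, enoyl-CoA isomerases, differed by -0.11 and -0.026, and Eci2 is also found in peroxisomes. The electron transfer genes Etfa and Etfb, subunits of the flavoprotein, and Etfdh, its oxidoreductase, differed by 0.001, -0.081 and -0.013. Acot2, a mitochondrial thioesterase that frees fatty acids from coenzyme A, differed by 0.042.

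**Figure D2:**
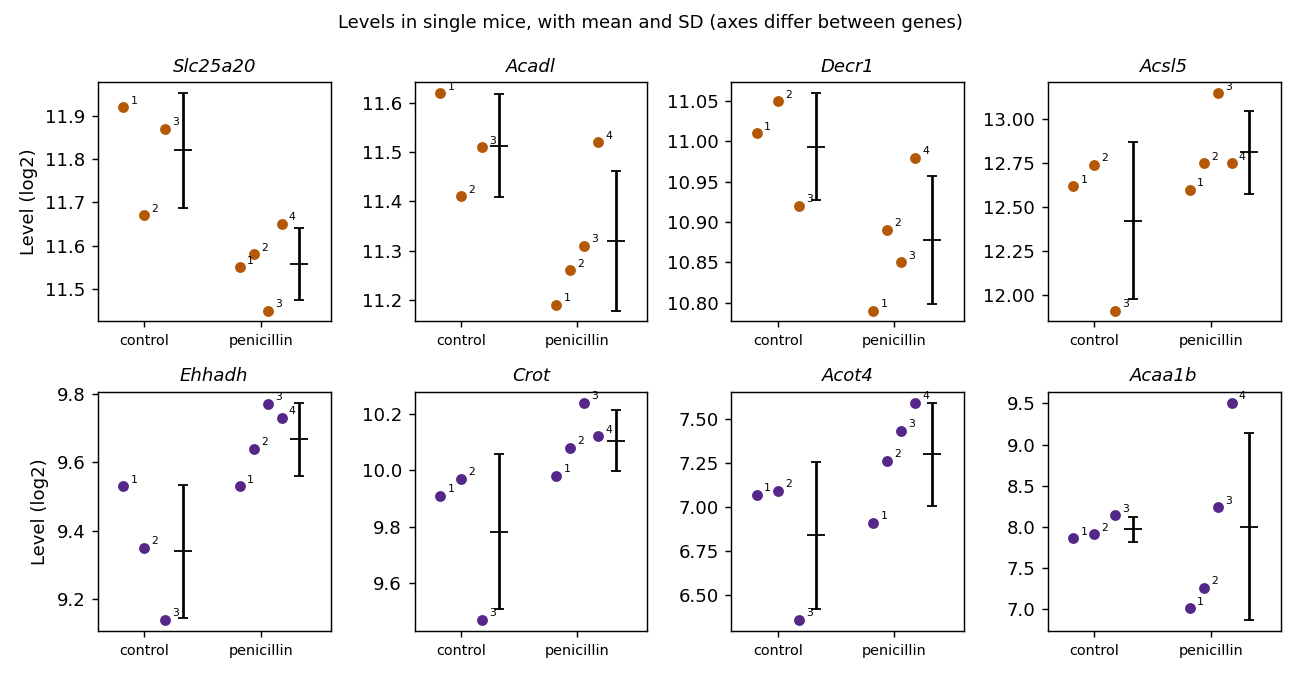
Levels (log2, vertical axis) in 3 control and 4 penicillin mice for 8 members, numbered by replicate, with the mean and SD of each group beside the points; brown genes are mitochondrial and purple ones peroxisomal. Control replicate 3 is the lowest of 7 mice for Acsl5, Ehhadh, Crot and Acot4, and Acaa1b spreads in penicillin mice from 7.01 to 9.51.

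Of the peroxisomal genes Ehhadh, the bifunctional enzyme that hydrates and then oxidises the chain, had the smallest unadjusted p. It was at 9.53, 9.35 and 9.14 in control replicates 1 to 3 and at 9.53, 9.64, 9.77 and 9.73 in penicillin replicates 1 to 4. Control replicate 1 and penicillin replicate 1 were listed at the same value, and the other penicillin mice lay above all controls. The difference was 0.33 ± 0.10 (SE, 1.25-fold, limma adjusted p = 0.358), and it was 0.23 without control replicate 3. Hsd17b4, the second bifunctional enzyme, known for branched chains and bile acid precursors, differed by 0.20 ± 0.14 (SE). Its second probe set differed by 0.30.

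Crot, which turns shortened chains into carnitine esters for export to mitochondria, was the 1 member whose groups did not overlap on the higher side, as in 4.29% of all genes. It was at 9.91, 9.97 and 9.47 in control mice and at 9.98, 10.08, 10.24 and 10.12 in penicillin mice. Control replicate 2 and penicillin replicate 1 were nearly level, and control replicate 3 lay well below the rest. The difference was 0.32 ± 0.13 (SE, adjusted p = 0.440) and was 0.17 without control replicate 3.

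The thioesterases of peroxisomes, which release free acids, went in different directions. Acot4, known for cleaving succinyl-CoA, was at 7.07, 7.09 and 6.36 in control mice and at 6.91, 7.26, 7.43 and 7.59 in penicillin mice. Penicillin replicate 1 lay below control replicates 1 and 2, and control replicate 3 was lowest. The difference of 0.46 ± 0.22 (SE, adjusted p = 0.501) was 0.22 without control replicate 3. Acot8, a thioesterase with broad chain preference, was the 1 peroxisomal member with a lower value, at -0.12 ± 0.061 (SE, adjusted p = 0.522), and at -0.15 without control replicate 3.

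The thiolases of peroxisomes are encoded by the near-identical genes Acaa1a and Acaa1b and by Scp2. The probe sets that name both Acaa1 genes were left out. Acaa1a differed by 0.15 ± 0.089 (SE), on a set marked as open to other transcripts. Acaa1b had the widest spread of all members: it was at 7.86, 7.91 and 8.14 in control mice and at 7.01, 7.26, 8.24 and 9.51 in penicillin mice. Penicillin replicates 1 and 2 lay below all controls and penicillin replicates 3 and 4 above them. The difference of 0.036 had a 95% interval from -1.24 to 1.31, which spans more than 2-fold in both directions. Scp2, which also encodes a sterol carrier, differed by 0.14 ± 0.11 (SE), and its 4 probe sets all had higher values in penicillin mice, between 0.013 and 0.56. Abcd3, the transporter that admits acyl groups, and Decr2, the reductase for unsaturated chains, differed by 0.061 and 0.094. Without control replicate 3 Abcd3 was at -0.032.

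Further probe sets gave the same signs. Of 22 further sets of the members, 18 lay above the filter, and all 18 had the sign of the chosen set. All 7 of the peroxisomal ones were higher in penicillin mice, as were 7 of the 11 mitochondrial ones. Probe sets of 1 gene were read from the same 7 RNA samples, so they test the probes and not the mice.

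Set against each other, the mitochondrial median minus the peroxisomal median was -0.19, with no test of this difference. Per mouse, each member was taken relative to its own mean over the 7 arrays and averaged by compartment. The mitochondrial mean was 0.067, -0.037 and 0.021 in control replicates 1 to 3 and -0.096, -0.013, -0.004 and 0.062 in penicillin replicates 1 to 4. The peroxisomal mean was 0.023, -0.043 and -0.27 in control mice and -0.18, -0.003, 0.18 and 0.29 in penicillin mice. The groups overlapped in both compartments, and the peroxisomal mean spread more, with an SD of 0.15 in control and 0.21 in penicillin mice against 0.052 and 0.065. The peroxisomal mean minus the mitochondrial one was -0.044, -0.007 and -0.29 in control mice and -0.088, 0.010, 0.18 and 0.23 in penicillin mice. Penicillin replicates 3 and 4 thus lay above all other mice and control replicate 3 below them, while the remaining 4 mice of both groups lay within -0.088 and 0.010. Without Acaa1b, left out after its spread was seen, the peroxisomal mean was 0.041, -0.039 and -0.31 in control replicates 1 to 3. In penicillin replicates 1 to 4 it was then -0.096, 0.077, 0.17 and 0.16, so the groups still overlapped. The SD was then 0.185 in control and 0.123 in penicillin mice.

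**Figure D3:**
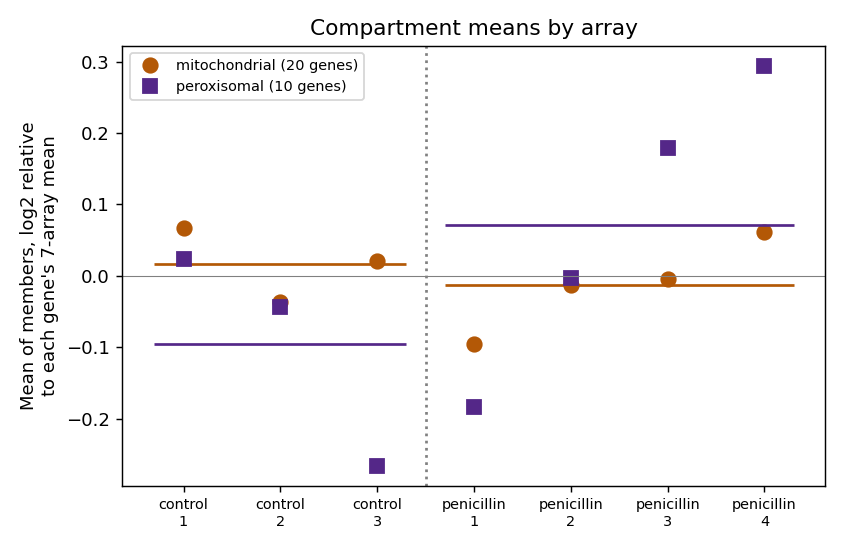
Mean of the 20 mitochondrial members (brown circles) and the 10 peroxisomal members (purple squares) in each mouse, relative to each gene's mean over the 7 arrays (log2, vertical axis); bars give the group means. The mitochondrial means lie between -0.096 and 0.067, and the peroxisomal means run from -0.27 in control replicate 3 to 0.29 in penicillin replicate 4.

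Over all genes, too, control replicate 3 lay far from the other mice, at -29.98 on the first principal component against -2.90 to 17.61. It was the lowest of the 7 mice for 8 of the 10 peroxisomal members, against 21.6% of all genes, and for 2 of the 20 mitochondrial ones. For 5 mitochondrial members and for no peroxisomal one it was the highest, against 30.3% of all genes. Without it 8 of the 10 peroxisomal members had higher values in penicillin mice, with a median of 0.088, and the mitochondrial median was -0.023. In that fit 2 members had an unadjusted p under 0.05, Ehhadh on the higher side, where the share over all genes was 4.33%, and Slc25a20 on the lower, where it was 6.28%. None passed over all genes.

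In the same array markers of several cell types were shifted. Of the brush border list of enterocytes 13 of 16 genes were tested, and their mean was -1.04 in control replicate 3 and between 0.032 and 0.64 in the other 6 mice. All 13 had higher values in penicillin mice, with a median of 0.46. Without control replicate 3 it was 7 of 13, with a median of 0.092. The mean of 7 adipocyte genes, Adipoq among them at log2 11.92 ± 0.773 (SD, n = 3) in control mice, was 0.86 there and between -0.56 and 0.25 elsewhere. The mean of 6 colon genes was 1.79 in control replicate 3, 0.25 in penicillin replicate 1 and between -0.57 and -0.26 in the other mice. The value of control replicate 3 rested mostly on Car1 and Aqp8. Car1 was at 14.10 in that mouse and at 7.38 and 7.30 in the other controls. In penicillin replicates 1 to 4 Car1 was at 10.82, 7.06, 5.11 and 7.63. Aqp8 was at 8.27 in control replicate 3. In every other mouse Aqp8 lay under the filter value of log2 4.588, so it passed the filter only through that array. Slc37a2 and Slc26a3 were higher there than in the other controls, and Muc2 and Car4 were lower. In whole tissue fewer cells of a type and less RNA per cell cannot be told apart, and the part of these shifts in the values of the members was not tested.

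Among penicillin mice most members had the same mouse at the bottom. Penicillin replicate 1 was the lowest of the 4 for 27 of the 30 members, 17 mitochondrial and all 10 peroxisomal, against 30.1% of all genes. Penicillin replicate 4 was the highest for 18 members, 14 of them mitochondrial, against 25.7% of all genes. The brush border mean of penicillin replicate 1, at 0.032, was also the lowest of the 4, and that of penicillin replicate 3, at 0.64, the highest. The citric acid cycle list, given below, had its lowest penicillin mean in replicate 1 (-0.056) and its highest in replicate 4 (0.045). So did respiratory chain subunits (-0.051 and 0.026), the peroxisome assembly list (-0.069 and 0.096) and other enzymes of fatty acid oxidation (-0.037 and 0.115). For fatty acid entry, ketone body enzymes and regulators, penicillin replicate 2 was lowest. Without penicillin replicate 1 the peroxisomal median was 0.25 and the mitochondrial median -0.016.

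**Figure D4:**
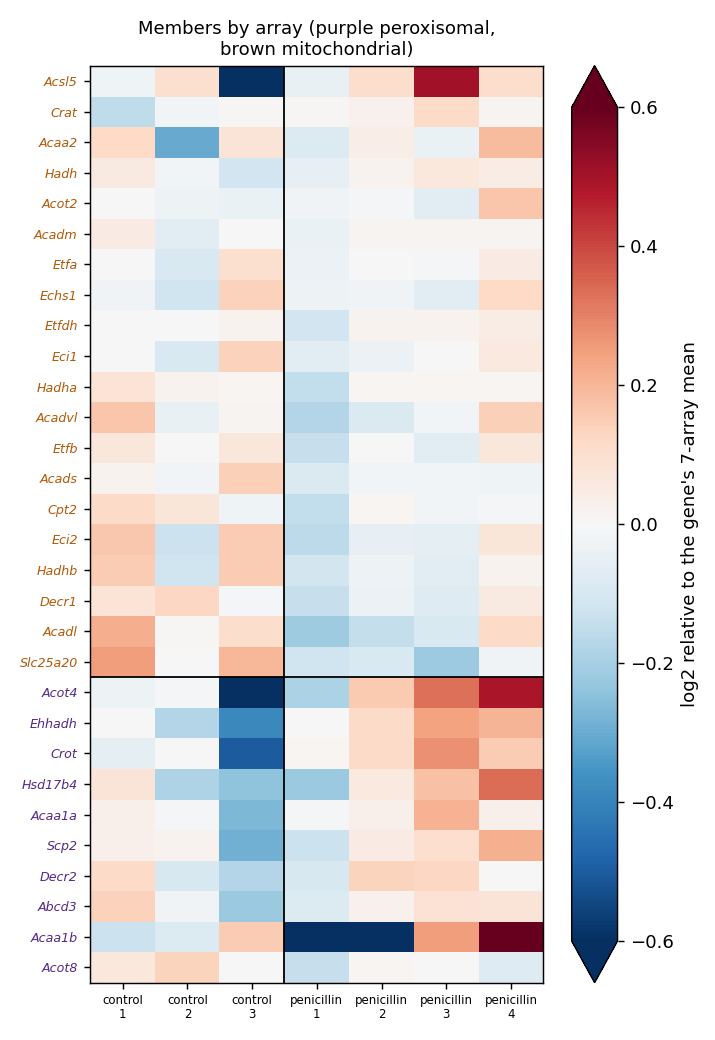
Level of each of the 30 members in each mouse relative to the gene's 7-array mean (log2, colour, cut at 0.6 in both directions), mitochondrial genes above the black line and peroxisomal genes below it. Control replicate 3 is the lowest of the 7 columns for 8 of the 10 peroxisomal genes, and penicillin replicate 1 is the lowest of the 4 penicillin columns for 27 of the 30 genes.

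Other genes of fat oxidation, from lists outside the members, likewise held none past the test. Of 12 genes of fatty acid entry and its control none had an unadjusted p under 0.05. Cpt1a, the gate of mitochondrial entry, differed by -0.16 ± 0.10 (SE), and Acacb, whose product makes the inhibitor of that gate, by -0.34 ± 0.15 (SE). Cpt1c, a relative of Cpt1a known from brain, differed by -0.20 ± 0.10 (SE). Of 19 other enzymes of fatty acid oxidation 1 had an unadjusted p under 0.05, on the higher side, where the share over all genes was 4.37%. That gene was Hacl1, a peroxisomal lyase of branched chains that belongs to alpha-oxidation and not to beta-oxidation. Its difference was 0.17 ± 0.068 (SE, limma adjusted p = 0.440). Acot3, another peroxisomal thioesterase, differed by 0.17. Of 3 ketone body enzymes Oxct1 and Bdh1 differed by 0.099 and -0.070.

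Among 13 regulators 1 had an unadjusted p under 0.05 with higher values and 2 with lower values, and none passed over all genes. The shares over all genes were 4.37% on the higher and 6.35% on the lower side. Ppara, the receptor for which many members are known targets, was at 8.69 ± 0.107 (SD, n = 3) in control and 8.90 ± 0.069 (SD, n = 4) in penicillin mice, a difference of 0.20 ± 0.069 (SE, adjusted p = 0.398). Ppard, a related receptor, differed by -0.27 ± 0.093 (SE, adjusted p = 0.410). The groups did not overlap in either gene, as in 4.29% of all genes on the higher side and 6.05% on the lower. Without control replicate 3 Ppara differed by 0.14 and Ppard by -0.36. Pdk4, a kinase that restrains sugar oxidation and responds to fat, differed by -0.36 ± 0.27 (SE), or by -0.054 without control replicate 3.

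General markers of the 2 organelles differed little. The 13 genes of the peroxisome assembly list had a median of 0.018 with 8 higher values. Among those 8 was Cat, at 0.21, which encodes the peroxisomal enzyme catalase and is not an assembly gene. Pex26 and Pex11a, an import factor and a division factor, differed by -0.12 and -0.16. The 16 citric acid cycle genes had a median of -0.030 with 5 higher values, and Sdhc and Sucla2 differed by -0.094 and 0.12. The 16 respiratory chain subunits had a median of -0.018 with 4 higher values, and Ndufv1 and Ndufs3 of complex I differed by -0.11 and -0.098. No gene of these 3 lists had an unadjusted p under 0.05. Relative to the 7-array mean, the mean of the assembly list lay between -0.069 and 0.096 over the 7 mice, where the peroxisomal members ran from -0.27 to 0.29.

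Markers of other cells in the tissue gave these values beside the members. Leukocyte genes had lower values in penicillin mice for all 11 tested, with a median of -0.59. At an unadjusted p under 0.05 stood 9 of them, where the share over all genes was 6.35%. Of these Ccl5 passed over all genes, at -1.34 ± 0.15 (SE, limma adjusted p = 0.0407). The list's mean lay between 0.37 and 0.53 in control and between -0.59 and -0.098 in penicillin mice. The list's part in the members' values was not tested. Smooth muscle genes had a median of -0.16 over 8 genes, crypt genes of -0.087 over 8, and proximal small intestine genes of 0.19 over 10. Hepatocyte genes had a median of 0.069 over 6, pancreatic acinar genes of 0.096 over 3, adipocyte genes of -0.25 over 7, colon genes of -0.38 over 6 and ileal genes of 0.076 over 6. Without control replicate 3 the sign turned for crypt genes (0.016), adipocyte genes (0.041) and ileal genes (-0.044), and the colon median was -0.004.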

How the data were processed

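Total RNA was labelled with biotin and hybridised to 7 Affymetrix arrays, 3 control and 4 penicillin, per the labels' protocols. The deposited values are log2 expression per probe set, for which the submitters' processing notes name RMA and affy. Their versions and the genome build: not given in the sources used here. Values ran from 2.50 to 14.75, with array medians from 5.43 to 5.45. RMA gives no detection call, and the number of arrays limits precision.

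Of 45101 probe sets, 34958 named 1 gene in the platform annotation of 2016; without control sets 34945 were used, 34741 matched to RefSeq by gene ID. For each of 18193 genes the set with the highest mean was kept, and 13644 genes whose mean exceeded the 25th percentile, log2 4.588, were tested. The test was limma 3.58.1 under R 4.3.3 (lmFit, eBayes without trend, two-sided, Benjamini-Hochberg over all genes, threshold 0.05). The members, lists and tests were chosen with earlier results of these data known, so medians and counts over members carry no test. All members are named. Array values are given for those whose groups do not overlap and for the 4 mitochondrial and 3 peroxisomal members of smallest p. They are also given for Acaa1b, chosen for its spread after values were seen. Of other pathway lists the 2 genes of smallest p were named, plus Cpt1a, Ppara, Pdk4 and Cat. Adipoq, Ccl5, Fabp6, the 6 colon genes and the 6 hepatocyte genes were named from the marker lists. Same-numbered arrays of the groups were not paired by any label. Figures were drawn with matplotlib 3.10.9. The alternatives tried are given in the closing section.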

Additional observations from a re-analysis of the deposited data

Results flagged for a closer look

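In 3 of 30 members 1 penicillin mouse lay far from the other 3, and each time it was penicillin replicate 1, the lowest. Acadm was at 11.78 there and at 11.84 (rounded) in the others. Hadha was at 9.87 there and at the identical value of 10.03 in the others, and Etfdh was at 10.06 against 10.20 to 10.22. Dixon's ratio, the gap to the nearest mouse over the whole range, was above its 95% critical value for 4 samples in these members. For normal, untied values about 1 in 20 groups exceeds that value by chance. The Hadha values were tied, and all members were read in the same mice. The 3 flags are therefore not independent, and that rate does not apply to them directly. The groups of 3 control mice were not examined this way.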

How the results depend on the processing

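No member passed at an adjusted p under 0.05 in limma except with array quality weights, where 1 did: Slc25a20 at -0.33 (adjusted p = 0.0275), in a fit that called 774 genes over all. That fit weighted control replicate 1 at 4.535 and control replicates 2 and 3 at 0.4643 and 0.2488, so its control values came mostly from 1 mouse. The count over all genes was 40 at an adjusted p under 0.1, 7 with probe sets averaged, 2 without control replicate 3 and penicillin replicate 3 together, and 0 with the replicate block. No label pairs the mice by replicate number. Deviations of same-numbered arrays from their group means correlated at -0.164, 0.003 and -0.416, and those of differently numbered arrays at -0.367 to 0.375. Deviations from means of so few arrays depend on each other, so these values cannot decide whether same-numbered mice shared a source. Leaving out 1 array gave 0 to 15 genes and 0 members. The members with non-overlapping groups, 2 in the comparison of all arrays, numbered 4 with probe sets averaged, 7 without both replicates 3 and 2 to 8 with 1 array left out. Over all genes the share was 10.3% with all arrays, and in those settings 10.9%, 25.8% and 12.3% to 24.6%. The count of 8 was without penicillin replicate 1, where the share was 14.8%.

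The mitochondrial median stayed negative in 19 alternatives (-0.076 to -0.016) and the peroxisomal median positive in 20 (0.032 to 0.25). Within groups, the SD between arrays of the compartment means was 0.0601 for mitochondrial and 0.189 for peroxisomal members. Each SD exceeded in size the median over all arrays, -0.046 and 0.14, so shifts smaller than it do not show that the medians are stable. The median of the peroxisomal members was lowest without both replicates 3 (0.032), 0.036 with array quality weights and 0.088 without control replicate 3, and highest without penicillin replicate 1. The mitochondrial median was -0.026 without control replicate 1, -0.076 without control replicate 2, -0.023 without control replicate 3 and -0.016 without penicillin replicate 1. Mitochondrial minus peroxisomal medians ran from -0.27 to -0.062, with -0.11 without control replicate 3. Of 510 member values under alternatives 32 changed sign, in 12 members; 18 members kept their sign in all 17. The cause was not tested. The median 95% half-width of a member's difference was 0.18, which limits what 7 arrays could detect.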
